A study of Drosophila melanogaster with 16 samples.

Results

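The tracheal transcriptome of untreated female larvae was set against that of untreated male larvae, using 8 of the 16 libraries of a study of cigarette smoke in Drosophila melanogaster. The trachea is the branched tube system that carries air to the tissues of an insect. The 2 groups were female larvae kept in air and male larvae kept in air, with 4 libraries each, and the libraries were chosen by their labelled sex and air exposure. All larvae were of the wild-type laboratory strain Canton S, which carries no transgene or engineered allele, and RNA was taken from isolated trachea. The remaining 8 libraries, from female and from male larvae exposed to smoke of 3R4F research cigarettes, served only as a second set in which the same sex difference was measured. The labels state neither larval age nor the number of larvae behind a library. They do not say either that replicates came from separate animals, so each p-value speaks only of the spread among these libraries, and that spread may be technical.

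Sex in the fly is read in each cell from the number of X chromosomes. In females the RNA-binding protein Sex-lethal (Sxl) is made, keeps its own splicing in the productive mode, splices transformer (tra) so that protein is made, and represses msl-2. In males, which lack Sxl protein, Msl-2 assembles the male-specific lethal (MSL) complex with Msl-1, Msl-3, the helicase Mle, the histone acetyltransferase Mof and the noncoding RNAs roX1 and roX2, and this complex raises transcription of the single X. The trachea is a somatic, non-reproductive tissue present in both sexes.

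Between 15141228 and 23434521 reads per air library had been assigned to genes. Values are normalised reads, that is reads divided by a size factor estimated over the 8 air libraries together, and are listed for female replicates 1 to 4 and then male replicates 1 to 4. Changes are log2 female over male on the log2(normalised reads + 1) scale, with SE. Adjusted p-values come from limma, adjusted by the Benjamini-Hochberg method over the 9006 genes that reached 10 normalised reads in at least 4 libraries. Replicates 1 and 2 of both sexes were sequenced more deeply than replicates 3 and 4, and with sex in the model 1796 of 9006 genes (19.9%) passed limma's test between replicates 1 and 2 and replicates 3 and 4 (adjusted p under 0.05). Male replicate 3 stood apart: Sgs3, a glue protein gene of the salivary gland, had 1008, 1641, 330 and 696 normalised reads in females, against 187, 52.8, 52463 and 133 in males. The first principal component, with 45.4% of the variance, did not separate the sexes. On the second, with 18%, females lay at 40.8, 1.52, 9.14 and 23.4 and males at -12.7, 1.99, -23.8 and -40.4. There only male replicate 2 lay above a female library. Results below are therefore also given without single libraries, or within replicates 1 and 2 and within replicates 3 and 4, where that ends a call.

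Many tracheal genes were abundant in every library of both sexes. Levels in TPM, which correct for transcript length and were computed over nuclear protein-coding genes, averaged 184 for trachealess (trh), a transcription factor that specifies tracheal fate, and 136 for ventral veins lacking (vvl), which acts with it. The chitin deacetylase genes verm and serp, which modify the tracheal lining, averaged 1974 and 1409 TPM, and the chitin-binding protein gene Gasp averaged 638 TPM. Of the 20 tracheal markers 18 were matched and 17 were tested. The exception, rib, had 0 to 5.76 normalised reads in all 8 libraries. Among the tested markers dysf was the lowest, at 3.32 TPM on average, while knrl averaged 23.5 TPM and grh 37.0 TPM. The summed level of the 18 markers was 10581, 14944, 11053 and 10847 CPM (reads scaled to library size) in females, against 13191, 12568, 11105 and 15714 CPM in males. These ranges overlap. No tracheal marker passed the test in either direction by limma or edgeR, DESeq2 called Gasp lower in females, and at an unadjusted p under 0.05 limma gave 1 marker higher and 3 lower. Over all genes tested, 3.69% were higher and 3.3% lower in females at that unadjusted p.

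The most abundant transcript was that of Nplp4, a precursor of secreted peptides, at 72307, 38514, 80683 and 75309 TPM in females, against 56920, 41453, 47517 and 57711 TPM in males. Replicate 2 was the lowest of its sex in both groups. The next most abundant by mean TPM were CG11370 (25510 TPM), RpL41 (16023 TPM), CG13678 (12150 TPM), CG15353 (8511 TPM) and the transferrin gene Tsf1 (7762 TPM). Other abundant transcripts were those of the larval cuticle genes Lcp4, Lcp3 and Cpr47Ec, the chitinase-like growth factor gene Idgf4, the actin gene Act5C and the ribosomal protein genes RpL39, RpS18 and RpL23. None of these genes was called between the sexes by limma, edgeR or DESeq2 (none at an unadjusted p under 0.05 by limma). Some followed the replicate numbers more than the sex. CG15353 had 13522 and 12300 TPM in female replicates 1 and 2 and 3151 and 2983 TPM in female replicates 3 and 4, against 16507 and 13570 TPM in male replicates 1 and 2 and 2848 and 3211 TPM in male replicates 3 and 4.

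Between the sexes, 9 of 9006 genes (0.0999%) were called by limma at an adjusted p under 0.05. Of these, 3 were higher in females (0.0333% of genes tested): Sxl, tra and CG3939. The other 6 were lower in females (0.0666%): msl-2, mof, roX1, roX2, CG2157 and Agpat3. In all, 6 of the 9 belong to sex determination and dosage compensation. The edgeR quasi-likelihood test on whole reads called the same 9 genes, and DESeq2 called 128 of 8900 genes (1.44%), these 9 included. Precision bounds what could have been seen: the 95% interval of the log2 change lay within a 2-fold change either way for 6783 genes (75.3%). At an unadjusted p under 0.05, 332 genes (3.69%) were higher and 297 (3.3%) lower in females.

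**Figure D1:**
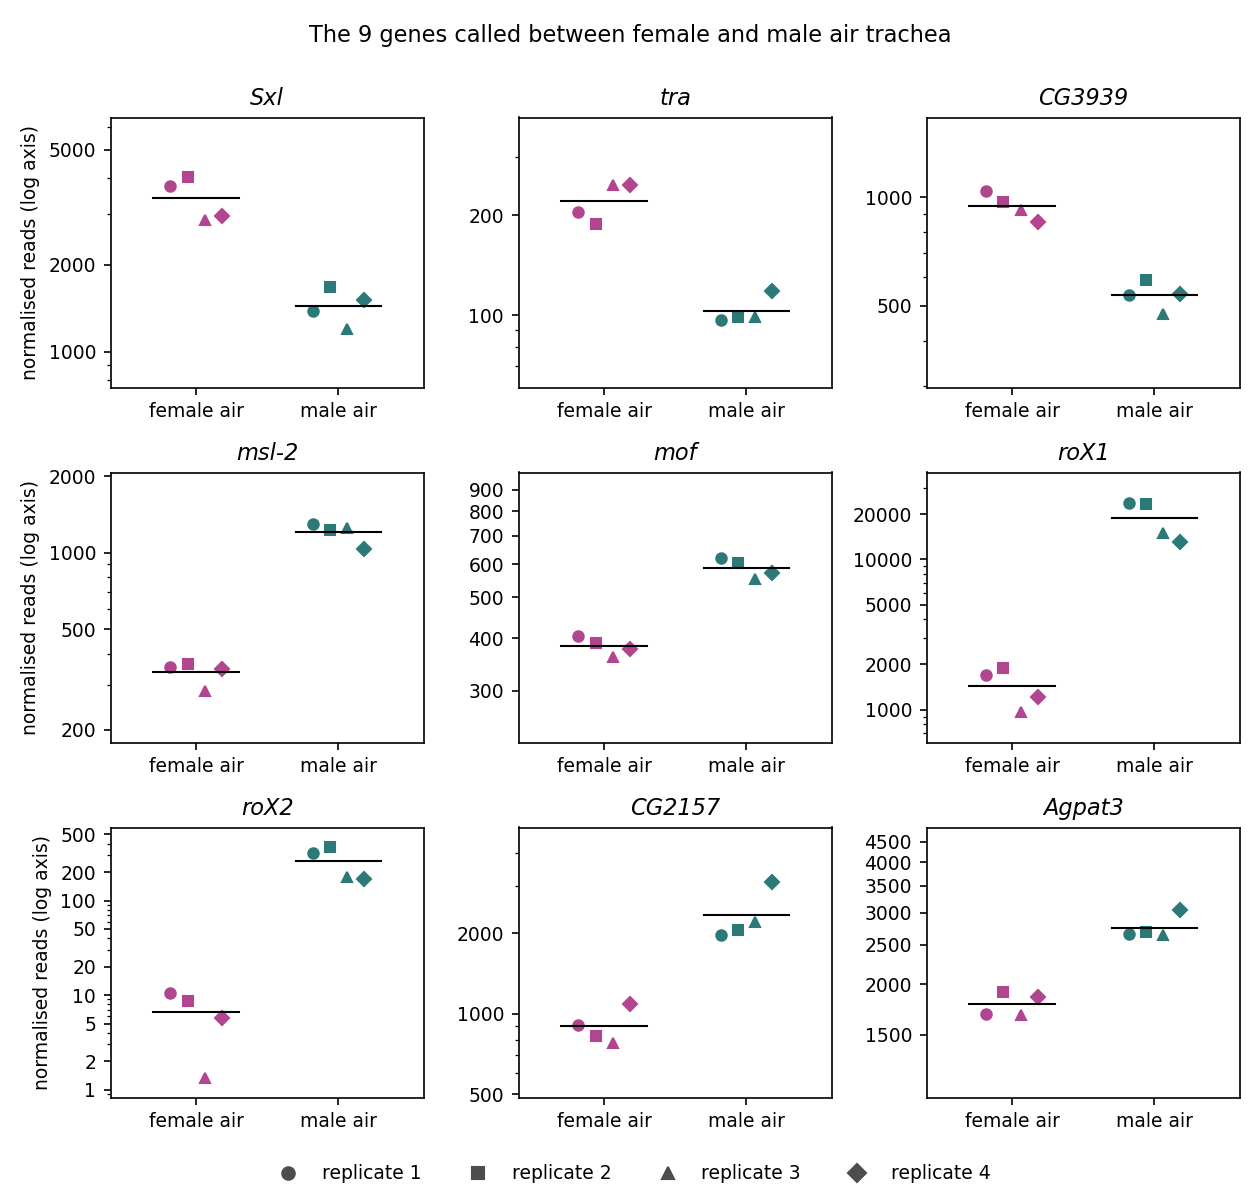
Normalised reads (log axis, with its own range for each gene) of the 9 called genes in 4 female air and 4 male air libraries; each point is a library, its shape the replicate number, and the line the group mean. In every panel all female libraries lie on 1 side of all male libraries, and the widest gap is that of roX2.

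Sxl stood higher in female trachea. It had 3747, 4034, 2861 and 2940 normalised reads in females, against 1391, 1678, 1205 and 1507 in males. The lowest female library lay above the highest male one. The log2 change was 1.23 ± 0.15 (limma adjusted p = 0.0396), which is a 2.34-fold change. Sxl is known to be transcribed in males too, in a splice form that carries an early stop codon, and reads counted per gene do not separate the splice forms.

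The direct splicing target of Sxl, tra, had 205, 189, 247 and 246 normalised reads in females, against 96.6, 98.9, 98.5 and 118 in males. Male libraries 1 to 3 lay within 3 reads of each other and no library overlapped the other sex. The log2 change was 1.09 ± 0.13 (limma adjusted p = 0.0396).

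Other genes of the sex determination pathway were not called by limma or edgeR. Of 15 tested members, limma and edgeR called 2 higher and none lower in females (5 higher and none lower at an unadjusted p under 0.05 by limma). DESeq2 called 4 higher (Sxl, tra, sc and gro) and none lower. Over all genes tested, limma called 0.0333% higher (3.69% at an unadjusted p under 0.05) and DESeq2 0.685%. The median log2 change of the 15 members was 0.16, against -0.0043 over all genes tested. Doublesex (dsx), whose transcript tra and tra2 splice into a female form, had 342, 148, 143 and 173 normalised reads in females, against 46.1, 96.4, 125 and 90.5 in males. The groups did not overlap, but female replicate 1 stood well above the other females and male replicate 1 well below the other males. The log2 change of 1.15 ± 0.38 did not pass (limma adjusted p = 0.576). The splicing partner tra2 gave a log2 change of 0.08 ± 0.07, with a 95% interval from -0.09 to 0.25. Fruitless (fru), another target of tra, gave 0.27 ± 0.19 (limma adjusted p = 0.873). The splicing cofactors of Sxl were close between the sexes: fl(2)d gave 0.01 ± 0.09, vir -0.07 ± 0.08, nito 0.02 ± 0.07 and Mettl3 0.05 ± 0.08, with 95% intervals that all lay between -0.27 and 0.23.

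Of the X-linked members, scute stood higher in all female libraries without passing limma's test. Scute (sc), which as an X-linked signal element counts X chromosomes in the early embryo and later specifies bristle precursors, had 103, 74.6, 77.5 and 72.5 normalised reads in females, against 13.3, 41.1, 28.3 and 23.7 in males. The sex difference was 1.68 ± 0.33 on the log2 scale (limma adjusted p = 0.199), and DESeq2 called it (adjusted p = 0.00273). The snRNP gene snf, also a splicing cofactor of Sxl, had 884, 930, 1262 and 1217 normalised reads in females, against 709, 743, 935 and 979 in males. The groups overlapped, though within each replicate number the female library was higher, and the log2 change was 0.35 ± 0.16 (limma adjusted p = 0.74).

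The regulated subunit of the MSL complex, msl-2, had the smallest p of all genes and was lower in females. It had 353, 365, 285 and 349 normalised reads in females, against 1296, 1232, 1257 and 1036 in males. The log2 change was -1.83 ± 0.11 (limma adjusted p = 0.00158), which is a 3.56-fold change with males higher. Females still had reads at this gene, whose transcript Sxl is known to retain in an unspliced, untranslated form.

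The noncoding RNA roX1 had 1706, 1900, 965 and 1210 normalised reads in females, against 23662, 23380, 15024 and 13079 in males. In both sexes replicates 1 and 2 lay above replicates 3 and 4, and the change was of like size in each (log2 -3.71 ± 0.10 within replicates 1 and 2, and -3.70 ± 0.15 within replicates 3 and 4). Over all 8 libraries it was -3.70 ± 0.28 (limma adjusted p = 0.00454), and the male mean was 13.0 times the female mean. The second roX RNA, roX2, was far scarcer, at 10.5, 8.73, 1.31 and 5.76 normalised reads in females, against 319, 370, 178 and 169 in males. On the log2 scale the sex difference was -5.24 ± 0.54 (limma adjusted p = 0.0325). Because both roX RNAs are present in males of every replicate and nearly absent or low in females, the sex labels of all 8 libraries fit these markers.

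The X-linked acetyltransferase gene mof had 404, 389, 361 and 376 normalised reads in females, against 619, 602, 553 and 572 in males. The spread within each sex was small (SD 18.3 in females and 29.6 in males), and the log2 change was -0.61 ± 0.07 (limma adjusted p = 0.0396). The remaining 6 tested genes of the dosage compensation list did not pass. These changes were -0.10 ± 0.13 for msl-1 and -0.15 ± 0.09 for msl-3, both structural subunits, and -0.07 ± 0.09 for mle. The X-binding zinc-finger gene Clamp gave 0.02 ± 0.12, the kinase gene JIL-1 -0.02 ± 0.10, and Unr, a partner of Sxl in the repression of msl-2, 0.08 ± 0.25. The 95% intervals of these 6 genes lay between -0.50 and 0.66. In all, limma, edgeR and DESeq2 each called 4 of 10 list members lower in females and none higher (also none higher at an unadjusted p under 0.05 by limma), with a median log2 change of -0.13, against -0.0043 over all genes tested. Of all genes tested, limma and edgeR called 0.0666% lower in females and DESeq2 0.753%.

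Among the called genes outside these pathways, CG3939 on the X had 1041, 972, 922 and 852 normalised reads in females, against 534, 590, 474 and 540 in males (log2 change 0.82 ± 0.09, limma adjusted p = 0.0396). CG2157, also X-linked, had 908, 829, 776 and 1084 normalised reads in females, against 1972, 2060, 2206 and 3105 in males (-1.36 ± 0.17, limma adjusted p = 0.0396). In both sexes replicate 4 was its highest library. Agpat3 on arm 3L, which encodes an acyltransferase of phospholipid synthesis, had 1689, 1918, 1677 and 1861 normalised reads in females, against 2661, 2690, 2644 and 3049 in males (-0.63 ± 0.08, limma adjusted p = 0.0396).

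The 9 calls differed in how they held when libraries were left out. Leaving out any single library kept msl-2 (adjusted p 0.00397 to 0.0184) and roX1 (0.0106 to 0.0392) called by limma. It ended the calls of Sxl, tra, CG3939, mof, CG2157 and Agpat3 whichever of the 8 libraries was left out (limma adjusted p 0.0590 to 0.184), and that of roX2 unless female replicate 3 was the one left out. Their log2 changes moved little, with Sxl at 1.14 to 1.31, tra at 1.04 to 1.17 and mof at -0.64 to -0.59. Within replicates 1 and 2 alone, limma kept only the call of roX1, so that of msl-2 ended too. Within replicates 3 and 4 alone, none of the 9 calls was kept. All 9 genes kept their sign within both pairs. With male replicate 3 and female replicate 2, the libraries farthest apart on the first component, left out together, 124 genes were called, the same 9 among them.

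Some genes past the threshold of limma's test were read after the calls were known. CG11585 on the X had 34, 23, 19.7 and 40.3 normalised reads in females, against 284, 130, 331 and 136 in males (log2 change -2.80 ± 0.38, limma adjusted p = 0.0577). The phosphoserine phosphatase gene aay, CG4607 and M7BP, with log2 changes of -0.69 ± 0.09, -0.90 ± 0.12 and -0.88 ± 0.12, had the same adjusted p. DESeq2 called CG11585 (adjusted p = 1.18e-08), aay (9.42e-08), CG4607 (6.32e-08) and M7BP (1.1e-07). Sister-of-Sex-lethal (ssx), the X-linked paralog of Sxl, had 1664, 1693, 1371 and 1621 normalised reads in females, against 2346, 2410, 2057 and 2215 in males. It lay in the opposite direction to Sxl, at -0.51 ± 0.09, and did not pass in air by limma (adjusted p = 0.157), though DESeq2 called it (adjusted p = 2.25e-05). In the smoke libraries it was lower in females (-0.60, limma adjusted p = 0.000972), and the air minus smoke difference was 0.09 ± 0.10 (limma adjusted p = 0.762).

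The typical X-linked gene stood slightly higher in females. The median log2 change of the 1459 tested X-linked genes was 0.07, with quartiles of -0.07 and 0.21, and 63.9% of these genes were higher in females. On the 7312 genes of arms 2L, 2R, 3L and 3R the median was -0.02 and 45.8% were higher in females. Female and male libraries did not overlap with females above for 145 X-linked genes (9.94%), against 94 genes of these autosome arms (1.29%) and 244 of all genes tested (2.71%). With females below, 35 X-linked genes (2.4%) did not overlap, against 134 of these autosomal genes (1.83%) and 173 of all genes tested (1.92%). DESeq2 called 61 genes higher (0.685% of 8900) and 67 lower (0.753%) in females, and 49 of the 61 and 20 of the 67 were X-linked.

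**Figure D2:**
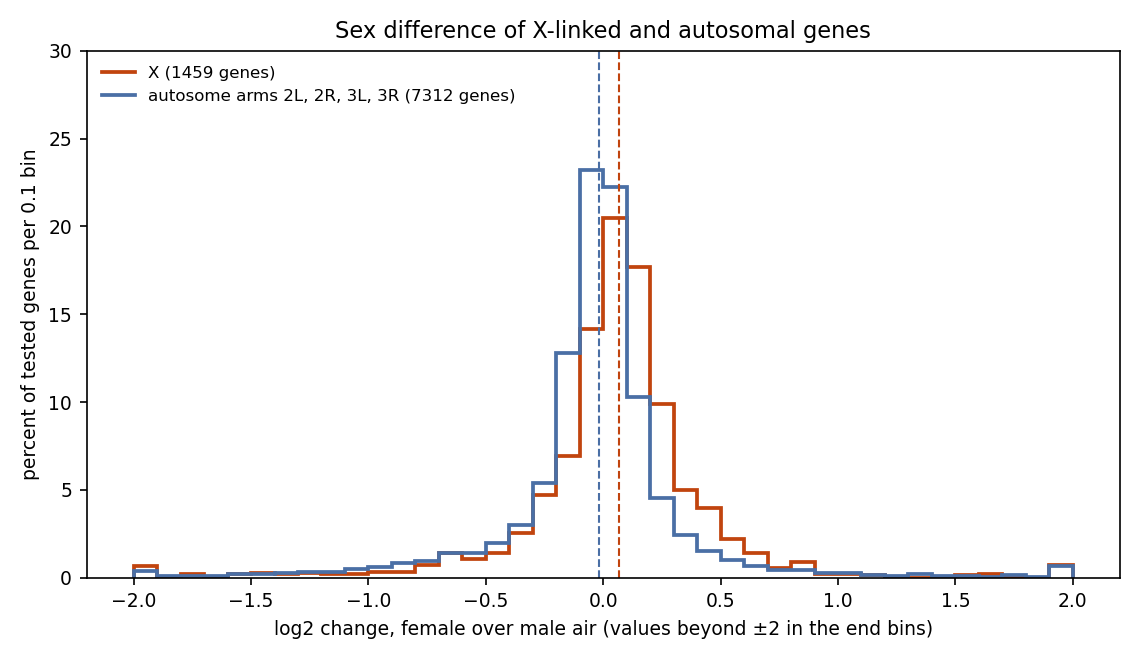
Distribution of the log2 change, female over male air, among tested genes of the X and of autosome arms 2L, 2R, 3L and 3R, as the percent of genes per bin, with dashed lines at the medians. The X-linked curve, with a median of 0.07, is shifted slightly to the right of the autosomal one, with a median of -0.02, far less than a log2 change of 1.

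One value per library gives a test of this shift over samples. The median X-linked minus the median autosomal log2(normalised reads + 1) was 0.358, 0.432, 0.414 and 0.423 in females, against 0.270, 0.310, 0.259 and 0.342 in males. Every female library lay above every male library. The means were 0.407 ± 0.033 and 0.295 ± 0.038 (SD, n = 4 each), a difference of 0.112 (exact two-sided permutation test p = 0.0286, the smallest that 4 against 4 can give). It did not pass when genes needed 50 normalised reads (0.0923, exact permutation p = 0.0857), nor without female replicate 2, female replicate 3 or any 1 male replicate (0.10 to 0.132, exact permutation p = 0.0571). With 3 against 4 libraries such a p moves in steps of 0.0286, so the leave-outs say nothing about stability. The result with the filter of 50 compared 4 against 4 libraries and is not limited in that way. The share of all reads that fell on the X did not separate the sexes: it was 15.76%, 16.73%, 15.73% and 16.43% in females, against 15.95%, 15.7%, 15.41% and 16.53% in males (exact permutation p = 0.457, adjusted p = 0.971 over 8 chromosome arms).

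The larval serum protein genes offer a view of a single X-linked gene beside autosomal relatives. These storage proteins are made by the fat body, and Lsp1alpha, on the X, is known as a gene that escapes dosage compensation, while its paralogs Lsp1beta and Lsp1gamma lie on 2L and 3L. The 3 genes varied together over a wide range. Lsp1alpha had 7553, 3026, 18472 and 18110 whole reads in females, against 3632, 2426, 65300 and 13800 in males, and male replicate 3 was the highest. Lsp1beta had 8519, 3992, 25403 and 25974 whole reads in females, against 7280, 5160, 169792 and 31986 in males. In bulk RNA, fewer cells of a type and less RNA per cell cannot be told apart, so only the ratio within a library was compared.

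The log2 ratio of Lsp1alpha to the geometric mean of its paralogs was -0.22, -0.11, -0.40 and -0.52 in females, against -1.06, -1.02, -1.32 and -1.23 in males. The groups did not overlap, also not in male replicate 3, where fat body reads were highest. The female minus male difference was 0.85 (exact two-sided permutation test p = 0.0286, the smallest possible), and the smoke libraries, which share no sample with these, gave 0.83 (exact permutation p = 0.0286). This ratio was chosen after the data were seen, and how reads of these similar genes were split between them is not stated in the labels. By itself Lsp1alpha gave a log2 change of -0.04 in air and did not pass (limma adjusted p = 0.9998).

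**Figure D3:**
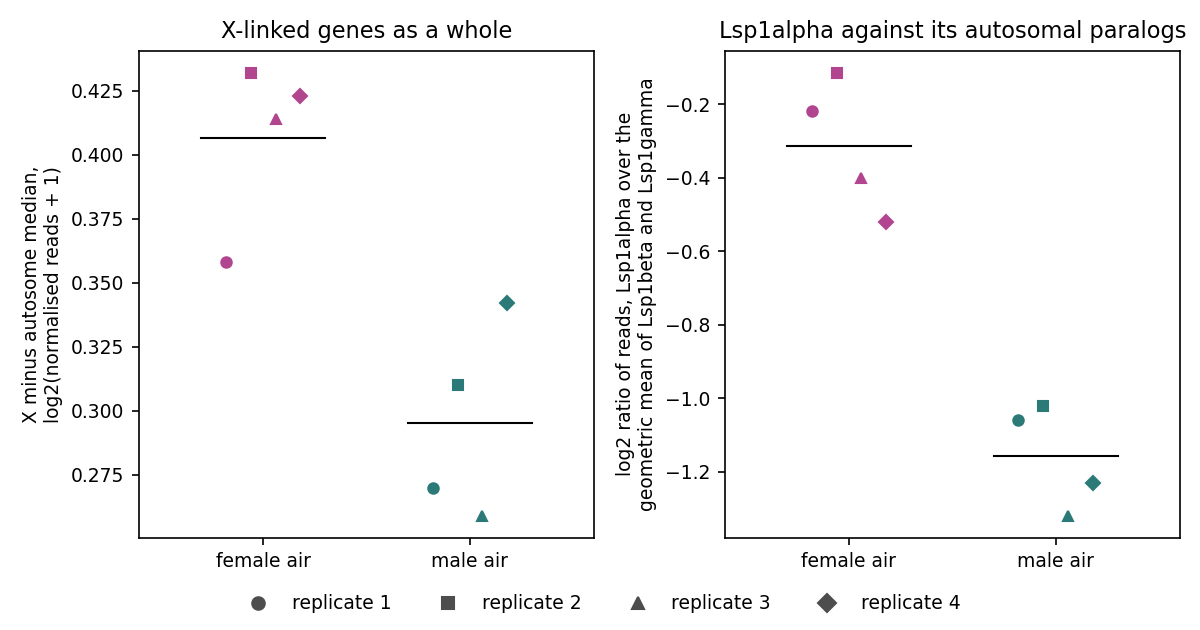
Left, median X-linked minus median autosomal log2(normalised reads + 1) per library; right, log2 ratio of Lsp1alpha reads to the geometric mean of Lsp1beta and Lsp1gamma reads per library; lines are group means. In both panels the 4 female libraries lie above the 4 male libraries, with group means that differ by 0.112 on the left and 0.85 on the right.

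Y-linked genes were nearly silent in trachea of both sexes. The 12 listed Y-linked genes, among them the sperm dynein genes kl-2, kl-3 and kl-5, gave 10 reads over all female libraries and 39 over all male libraries, too few for a test. FDY gave most of these, with 0, 5, 2 and 1 reads in females, against 9, 15, 2 and 7 in males. FDY derives from the autosomal gene vig2, so a read of the autosomal gene placed at the copy cannot be told from a read of FDY. The other listed Y-linked genes had at most 1 read in any library.

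Some transcripts of late sperm development were found at low levels in male libraries. Taken after their values were seen, dj, Mst98Ca, Mst98Cb, betaTub85D and loopin-1 together had 4, 1, 1 and 4 reads in females, against 144, 10, 77 and 77 in males. Male replicate 2 was close to the female libraries. None of these 5 genes had enough reads to be tested. The other 7 untested members, bam, aly, comr, topi, can, sa and nht, overlapped between the sexes. Together they had 12, 12, 4 and 2 reads in females, against 7, 15, 29 and 14 in males. Over the whole testis list 17 of 18 genes were matched, 5 were tested and none was called in either direction by limma, edgeR or DESeq2 (none at an unadjusted p under 0.05 by limma). Of these 5, mia had 492 reads over all female and 452 over all male libraries, and twe 309 and 331. In the same order fzo had 83 and 81 reads, Rbp4 65 and 77, and Mst87F 41 and 82. The summed testis list was 16.4, 12.7, 12.4 and 10.1 CPM in females, against 23.6, 15.7, 18.4 and 13.6 CPM in males, and its part in any other difference was not tested.

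The yolk protein genes, classical targets of dsx in the adult female fat body, were barely detected. Yp1 and Yp2 had 0 to 6 reads per female library and 0 to 7 per male library. Yp3 had 58, 10, 94 and 65 reads in females, against 1, 3, 5 and 4 in males. All female libraries lay above all males, but Yp3 passed the level filter in 3 libraries only and was not tested. The dsx targets bab1 and bab2 gave log2 changes of 1.06 ± 0.37 and 1.18 ± 0.49, with overlapping groups, and neither passed (limma adjusted p = 0.607 and 0.713).

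Genes of leg and wing imaginal discs, the precursors of adult appendages, varied widely between libraries. Dachshund (dac), a leg disc regulator, had 301, 413, 92.0 and 381 normalised reads in females, against 7.09, 43.6, 74.2 and 22.6 in males. The groups did not overlap, and the log2 change of 3.19 did not pass by limma (adjusted p = 0.303), though DESeq2 called it (adjusted p = 0.00205). The X-linked buttonhead-family gene Sp1, also a leg disc regulator, had 339, 598, 158 and 480 normalised reads in females, against 1.77, 5.87, 10.8 and 28.8 in males (log2 change 5.29 ± 0.73, limma adjusted p = 0.061), and DESeq2 called it (adjusted p = 1.05e-09). The wing regulator vestigial (vg) had 563, 96.8, 294 and 378 normalised reads in females, against 2.66, 328, 322 and 3.09 in males. Male replicates 1 and 4 had almost none, and male replicates 2 and 3 were as high as females. The 9 disc markers tested had a median log2 change of 2.21, against -0.0043 over all genes tested, and none was called by limma or edgeR (2 at an unadjusted p under 0.05, both higher in females). Over all genes tested, 3.69% were higher in females at that unadjusted p. Summed disc markers were 277, 160, 174 and 248 CPM in females, against 125, 188, 163 and 131 CPM in males, and these overlap.

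No cell cycle gene was called by limma, edgeR or DESeq2. Of 27 tested members, limma gave 11 higher in females at an unadjusted p under 0.05 (3.69% of all genes were) and none lower, and the median log2 change was 0.36, against -0.0043 over all genes tested. The replication clamp gene PCNA had 1966, 1668, 2342 and 2179 normalised reads in females, against 1323, 1663, 1767 and 1325 in males (log2 change 0.42, limma adjusted p = 0.59). Cyclin B3 (CycB3) had 1015, 959, 909 and 1057 normalised reads in females, against 785, 799, 881 and 791 in males (0.27, limma adjusted p = 0.427). Its groups did not overlap, as was so for 5 of the 27 genes, all with females above (2.71% of all genes). Summed reads of this list were 2212, 1682, 1842 and 1891 CPM in females, against 1581, 1731, 1550 and 1262 CPM in males. Female replicate 1 was the highest library for this list and for disc markers, and the part of disc cells in it was not tested.

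Markers of neighbouring tissues varied by library. Summed fat body markers were 2009, 871, 6338 and 6136 CPM in females, against 1423, 994, 34558 and 5334 CPM in males, so replicates 3 and 4 were high in both sexes and male replicate 3 highest. Summed salivary gland markers were 214, 259, 58.9 and 102 CPM in females, against 34.1, 11.7, 6662 and 18.6 CPM in males. Every female library lay above male replicates 1, 2 and 4, and male replicate 3 lay above all. Summed muscle markers were 12003, 4391, 15731 and 13033 CPM in females, against 7841, 6590, 14996 and 7983 CPM in males. Summed midgut markers were 20.4, 3.29, 455 and 224 CPM in females, against 16.04, 13.6, 12.3 and 49.2 CPM in males, with a median log2 change of 1.61 over the 6 genes tested. Female replicates 3 and 4 were high, and the groups overlapped. None of the 8 fat body, 8 salivary gland, 17 muscle, 9 hemocyte or 6 midgut genes tested was called by limma, edgeR or DESeq2. At an unadjusted p under 0.05, limma gave 1 salivary gland gene higher and 1 hemocyte gene lower in females, and none in the fat body, muscle and midgut lists. Of all genes tested, 3.69% were higher and 3.3% lower in females at that unadjusted p.

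**Figure D4:**
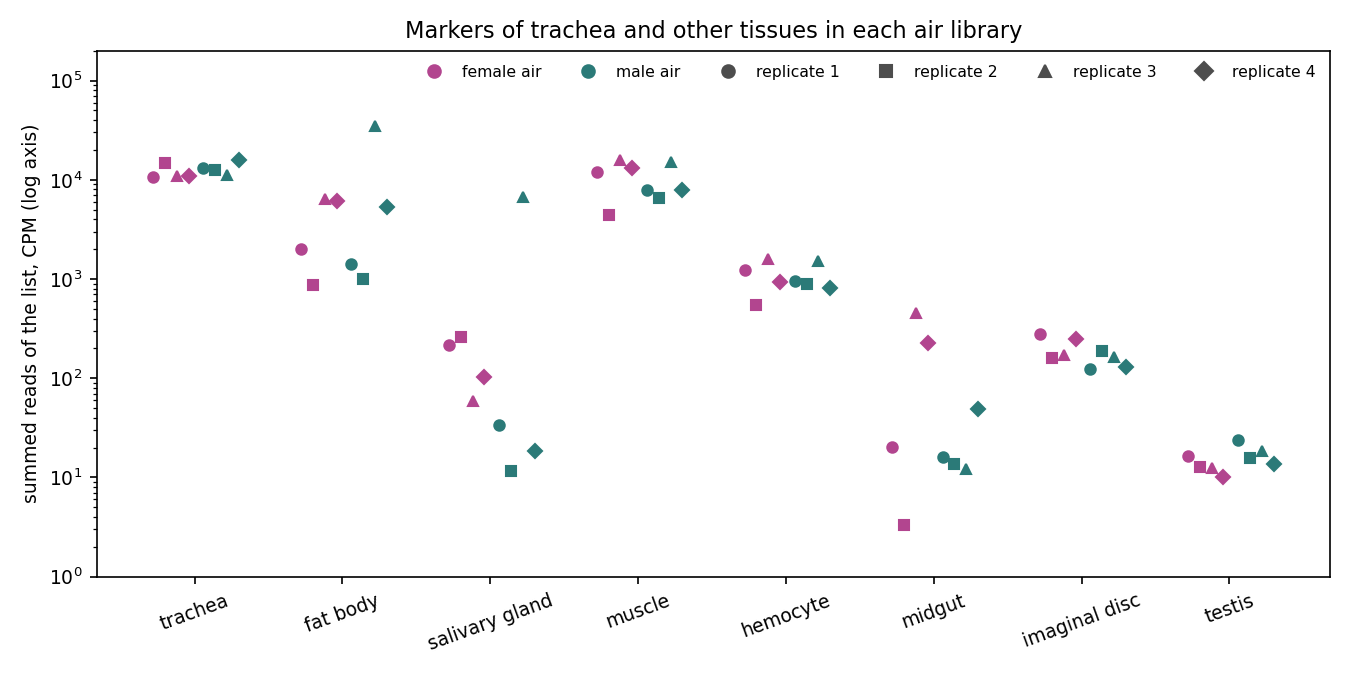
Summed reads of 8 marker lists in CPM (log axis) in each air library, with female libraries left of male libraries and the replicate number given by shape. Tracheal markers lie between 10581 and 15714 CPM in all libraries, while salivary gland markers reach 6662 CPM in male replicate 3 and 11.7 to 259 CPM elsewhere.

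Molting genes varied widely within each sex. The ecdysone-induced nuclear receptor gene Hr3 had 3.23, 612, 3.94 and 4.60 normalised reads in females, against 156, 165, 1.35 and 438 in males. Hr4, which is induced with it, had 88.1, 3866, 64.4 and 81.7 normalised reads in females, against 700, 750, 76.9 and 2662 in males. The same libraries were high in both genes: female replicate 2 and male replicates 1, 2 and 4. None of the 16 ecdysone response genes, 10 larval cuticle genes, 12 heat shock genes, 18 antioxidant genes and 11 antimicrobial peptide genes tested was called between the sexes by limma, edgeR or DESeq2. At an unadjusted p under 0.05, limma gave 1 antimicrobial peptide gene higher in females and none in the other 4 lists. The shares over all genes tested at that unadjusted p were 3.69% higher and 3.3% lower in females.

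The sex difference was measured again in the 8 smoke libraries, which share no sample with the air libraries. There limma called 304 of 8614 genes (3.53%), 280 higher and 24 lower in females. Of the 9 genes called in air, 7 had the same sign in smoke and 5 (55.6% of the air calls and 1.64% of the smoke calls) were called in that direction: msl-2 (log2 -2.38), roX1 (-3.38), roX2 (-4.15), mof (-0.72) and Sxl (1.05). Of the 304 genes called in smoke, 299 were tested in air and 98 had the same sign there. The difference of tra, at 0.54 ± 0.12, missed the threshold in smoke (limma adjusted p = 0.0551), as did that of CG3939, at 0.55 ± 0.15 (0.0886). For these 7 genes the air minus smoke difference of the sex effect did not pass the interaction test (limma adjusted p 0.141 to 0.781).

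CG2157 and Agpat3 were called in the opposite direction in smoke. CG2157 had 2745, 2783, 3115 and 1530 normalised reads in smoke-exposed females, against 76.3, 87.7, 558 and 66.3 in smoke-exposed males, so the sex with more reads differed between air and smoke (interaction -5.64 ± 0.72, limma adjusted p = 0.000449). Agpat3 had 2220, 2309, 1978 and 2185 normalised reads in smoke-exposed females, against 1266, 1369, 1486 and 1488 in smoke-exposed males (interaction -1.26 ± 0.11, limma adjusted p = 1.73e-05). Smoke values were scaled over the smoke libraries, and the interaction was fitted over all 16 libraries scaled together, where 198 of 9216 genes (2.15%) were called, 14 with a more positive and 184 with a more negative female over male change in air than in smoke.

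**Figure D5:**
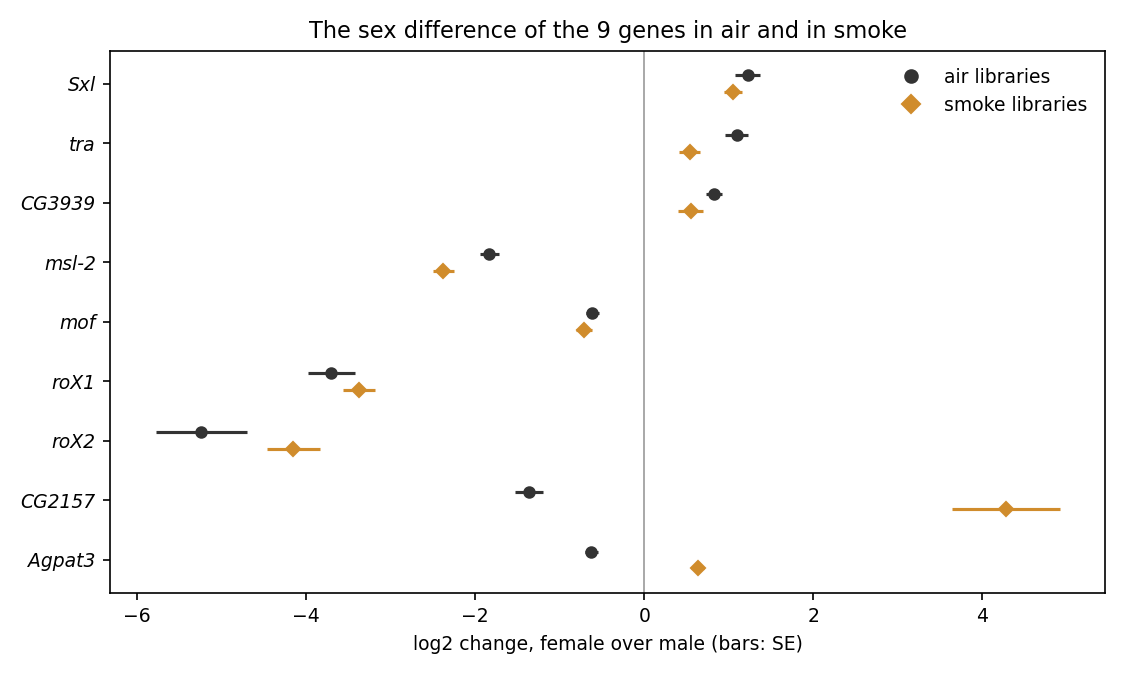
Log2 change, female over male, of the 9 genes called in air, in the air libraries (circles) and in the smoke libraries (diamonds), with SE as bars (n = 4 libraries per sex and exposure). For 7 genes both points lie on the same side of 0, and for CG2157 and Agpat3 they lie on opposite sides.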

How the data were processed

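Per the labels' protocols, tracheal RNA was purified (NucleoSpin RNA) and converted to libraries (NEBNext Ultra RNA), which were run on a NextSeq500 as 75 bp single reads. The submitters' processing notes name STAR 2.6.0c and DESeq2 1.22.2 without a role, and the only build they name is human (hg38), so no coordinates are given. For the counting tool, its use of strand and the annotation, the entry is: not given in the sources used here. Overlapping and antisense genes can therefore share reads. For each sex the authors deposited a table of normalised signal for 17559 genes. Its values behave as read counts that were divided by 1 size factor for each library. The authors' deposited comparison tables were used only to pair identifiers with symbols.

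All values (100%) were within 0.01 of whole multiples of 1 read, so whole reads were recovered and scaled together by the median of ratios over the 8 air libraries, since each sex had been normalised alone. Genes with few reads have the largest relative counting error. Ensembl's annotation of assembly BDGP6.54 held 17253 of the identifiers directly and 51 more by symbol, and gave names, chromosome arms and exon lengths for TPM. Listed genes without a match were not analysed here. No replicate was a copy of another: counts of replicate pairs gave a chi-square of 32 to 344 for each degree of freedom.

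Genes with at least 10 normalised reads in at least 4 of 8 libraries were tested as log2(normalised reads + 1) with limma 3.58.1 with a mean-variance trend in R 4.3.3, two-sided, with Benjamini-Hochberg adjustment and a threshold of 0.05. On this scale changes of low genes come out smaller than they are. Count tests on the recovered reads were run with edgeR 4.0.16 (quasi-likelihood) and DESeq2 1.42.0. Single values per library were compared with exact permutation tests over libraries in Python 3.11.15.

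Named genes were the called genes that had a symbol, a mean of at least 20 in the higher group and groups that did not overlap (up to 12 per direction), all measured members of the dosage compensation, sex determination, Y-linked and yolk lists, up to 2 called members of each other list, and the 15 protein-coding genes of highest mean TPM, of which 1 is not reported here. Other genes were named after their values were seen. Members and lists were chosen with earlier results of these data known. Alternatives were other scalings, pseudocounts and filters, count tests, array weights, terms for the replicate number or for replicates 1 and 2 against 3 and 4, each of those pairs alone, and leaving out libraries.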

Additional observations from a re-analysis of the deposited data

Results flagged for a closer look

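Of the 198 genes whose sex difference itself differed between air and smoke in the interaction test over 16 libraries (limma with Benjamini-Hochberg adjustment), 6 are named in the results above. Those called in air by limma were CG2157, at -5.64 ± 0.72 (adjusted p = 0.000449), and Agpat3, at -1.26 ± 0.11 (adjusted p = 1.73e-05). Groucho (gro), a corepressor gene of the sex determination list, gave 0.32 ± 0.07 (adjusted p = 0.029). For gro, neither sex difference alone passed limma's test, at 0.16 ± 0.05 in air (adjusted p = 0.608) and -0.17 ± 0.07 in smoke (adjusted p = 0.221), while DESeq2 called it higher in females in air (adjusted p = 0.035). The others were aay, at -1.08 ± 0.20 (adjusted p = 0.00759), M7BP, at -1.43 ± 0.26 (adjusted p = 0.00643), and the tracheal marker Gasp, at -0.49 ± 0.11 (adjusted p = 0.0334).

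In 16 of 156 groups of 4 libraries checked, 1 library lay far from the other 3 by Dixon's criterion, which chance meets in about 1 group of 20. Male replicate 3 had 5 of these flags. Its summed markers were 34558 CPM for fat body (994 to 5334 in the other males), 6662 CPM for salivary gland (11.7 to 34.1), 14996 CPM for muscle (6590 to 7983) and 101 CPM for neurons and glia (33.5 to 42.5), and its cuticle gene Lcp3 stood at 94834 normalised reads (8259 to 22805).

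Male replicate 4 had 3 flags: 3049 normalised reads of Agpat3 (2644 to 2690 in the other males), 118 of tra (96.6 to 98.9) and 49.2 CPM of midgut markers (12.28 to 16.04). Male replicate 2 had 16.8 normalised reads of bab1 (10.6 to 11.3), and male replicate 1 had 3.50 CPM over the yolk and dsx target list (8.92 to 9.26).

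Female replicate 1 had 342 normalised reads of dsx (143 to 173 in the other females), 103 of sc (72.5 to 77.5) and 1233 CPM over the sex determination list (1056 to 1086). Female replicate 2 had 421 normalised reads of the methyltransferase gene Mettl3 (374 to 379) and 14944 CPM of tracheal markers (10581 to 11053). Female replicate 3 had 758 CPM of insulin and growth genes (831 to 839).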

How the results depend on the processing

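All 9 called genes kept their sign in each of 25 alternative settings. Counts of calls moved, given as all, female-higher and female-lower: upper quartile scaling 3, 0 and 3; total read scaling 4, 1 and 3; values as deposited 6, 3 and 3; no filter 6, 2 and 4; a filter of 50 normalised reads 12, 3 and 9; DESeq2 128, 61 and 67; array weights 86, 42 and 44; a term for replicates 1 and 2 against 3 and 4 23, 10 and 13. Within replicates 1 and 2 the counts were 1, 0 and 1, and within replicates 3 and 4 they were 0, 0 and 0 (limma, 772 genes at an unadjusted p under 0.05, no other tool run there). Leaving out 1 library gave 2 to 3, 0 to 1 and 2 to 3. Without male replicate 3 and female replicate 2 together, chosen after the data were seen, they were 124, 54 and 70. The causes were not tested. TMM scaling, pseudocounts of 0.5 and 5, autosomal scaling and edgeR gave 8 to 10 calls.

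Replicate numbers are shared by the sexes. The deviations of same-numbered libraries correlated at 0.106, 0.429, 0.481 and 0.0922, over 0.1 in 3 of 4 pairs but not in every pair, and female replicates 1 and 4 correlated best with a male library of another number, so the numbers were not taken to pair the libraries. With the replicate block 4 genes were called, 0 higher and 4 lower in females (msl-2, roX1, roX2 and CG2157), and the air minus smoke difference gave 820 calls, against 198 without the block.

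The X minus autosome difference was 0.0923 with the filter of 50 (exact permutation p = 0.0857) and 0.10 to 0.133 with 1 library left out (exact permutation p 0.0286 to 0.0571, on a scale whose steps are 0.0286 for 3 against 4 libraries). The Lsp1alpha ratio difference ranged from 0.779 to 0.914 over its alternatives. Signs of uncalled named genes near 0 changed for at most 10 of them in any setting. Depth limits roX2, Yp3, Y-linked and testis genes, which had few reads in 1 or both sexes.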

Other observations

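The 14 tested genes of hypoxia and glycolysis had a median log2 change of 0.02 and the 11 of insulin and growth signalling one of -0.01, against -0.0043 over all genes tested. None was called by limma, edgeR or DESeq2. At an unadjusted p under 0.05, limma gave 1 insulin and growth gene lower in females and no other, against 3.3% lower and 3.69% higher over all genes tested. The germline and ovary list had 5 tested genes, none of them called by limma, edgeR or DESeq2. At an unadjusted p under 0.05 by limma, where 3.69% of all genes were higher in females, 2 members were higher. One of these was the X-linked zinc-finger gene ovo, which also acts in the epidermis, with 3031, 3062, 2454 and 2386 normalised reads in females, against 2359, 2537, 1905 and 2158 in males (log2 change 0.29, limma adjusted p = 0.713). The germline gene nanos had 23.8 normalised reads in female replicate 2 and at most 1.68 in any other air library. In whole reads, zpg had 16 in female replicate 2 (at most 1 in any other air library), piwi 36 (at most 8) and aub 59 (at most 20). Of the same list, otu, shu and tj had their highest counts in other libraries. The genes of posterior spiracles, the openings of the tracheal system, had summed levels of 388, 416, 313 and 327 CPM in females, against 411, 457, 323 and 439 CPM in males.

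The least stable gene within a sex was CG42834, with 2418, 13.5, 0 and 38.0 normalised reads in females, against 509, 4088, 1.35 and 9.26 in males. The cuticle gene TwdlX had 5549, 11.9, 2543 and 43.7 normalised reads in females, against 459, 135, 1778 and 192 in males.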
